A study of Mus musculus with 9 samples.

Results

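The metalloproteinases and their tissue inhibitors (TIMPs) made up 78 of the 19938 genes measured by probe sets with a single gene symbol. They were chosen by symbol alone: 22 matrix metalloproteinases (MMPs), 34 ADAM genes, 18 ADAMTS genes and 4 TIMP genes, each represented by its brightest probe set over the 9 arrays. RNA of 3 untreated mouse cell lines was compared on 3 arrays each. P19 comes from an embryonal carcinoma, R1 is an embryonic stem (ES) cell line, and the P19-derived pluripotent stem cells (N7P8 in the design text, P19 NTES7 in the study) are ES-like cells from a blastocyst cloned with a P19 nucleus. No allele or transgene is named for any line. Each group is 1 line, so a difference between groups is a difference between these lines and not between classes of cells. All 3 lines were grown in the same serum medium with leukemia inhibitory factor (LIF). The methods describe P19 NTES7 and other stem cells, but not P19, as plated on mitotically blocked mouse embryonic fibroblasts. By the design text of the series, these feeder cells were cleared for the RNA samples, and how is not given. The 3 arrays of each line are labelled as biological replicates. No source used here says that they were separate cultures, and the p-values then cover the spread between arrays, which may be technical.

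MMPs are zinc-dependent proteases that cut collagens, fibronectin and other proteins of the extracellular matrix. They are made as inactive zymogens, some are secreted, and others are held in the plasma membrane. ADAMs are membrane proteins with a protease and a disintegrin domain. Their active members release growth factors, cytokines and Notch from the cell surface, while others have lost the catalytic site and act in adhesion. ADAMTS proteases are secreted, bind the matrix through thrombospondin repeats and process procollagens and proteoglycans such as versican. TIMPs bind the active site of these enzymes. In the early embryo these genes are best known from trophoblast, parietal endoderm and migrating mesoderm, and in culture from fibroblasts.

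The values were intensities normalized by the authors with Robust Multichip Average (RMA), on a linear scale, with array medians from 16.5 to 17.5. Log2 values were compared with limma, and a gene was called where its Benjamini-Hochberg adjusted p over all 28853 probe sets was under 0.01 and its fold was over 2. All adjusted p-values of the text come from this fit. Arrays of the same line correlated at 0.989 to 0.998 over all probe sets. R1 arrays 1 and 2 were the closest pair of any line (SD of their log2 difference 0.125, against 0.168 to 0.293 for the other pairs). With R1 arrays 1 and 2 averaged into 1 replicate, 10 members were called higher and 2 lower in R1 than in P19, the same numbers as without averaging. Of the 12 markers of pluripotent cells, 3 were below the median of all array values (16.9) in P19 and 0 in either other line. Pou5f1, the core pluripotency factor Oct4, had a level of 2196 ± 109 in P19, 1470.1 ± 153 in R1 and 1471 ± 199 in P19 NTES7 (mean ± SD, n = 3 arrays).

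More members were higher in R1 than in P19 than in any other direction, and the MMPs held 5 of them. Of the 78 members, 10 were called higher in R1 than in P19, where 3.85% of all genes were, and 2 were called lower, where 3.46% of all genes were. The 10 were Mmp3, Mmp9, Mmp10, Mmp13, Mmp14, Adam19, Adam23, Adamts9, Adamts14 and Timp2, and the 2 were Mmp16 and Adam12. In P19 NTES7, 3 members were called higher than in P19 (Mmp3, Adam12 and Adamts9), where 1.44% of all genes were, and 1 was called lower (Mmp25), where 1.38% of all genes were. With each array centred on its median this split was 2 higher and 2 lower. Compared with R1, 1 member was called higher in P19 NTES7 (Adam12), where 1.68% of all genes were, and 7 were called lower, where 2.84% of all genes were. The 7 were Mmp3, Mmp10, Mmp13, Mmp14, Adam19, Adam23 and Timp2. The median log2 difference of the 78 members was 0.10 from P19 to R1 and 0.10 from P19 to P19 NTES7, against 0.02 and 0.02 over all genes, and -0.07 from R1 to P19 NTES7, against 0.01. In every family, most members were not called in any comparison. By the adjusted p alone, with no fold limit, 13 members passed as higher in R1 against P19 (10.7% of all genes) and 5 as lower (14.3%). In P19 NTES7 against P19, 12 passed as higher (4.89% of all genes) and 5 as lower (7.25%), and against R1 2 passed as higher (9.23%) and 14 as lower (9.44%).

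**Figure D1:**
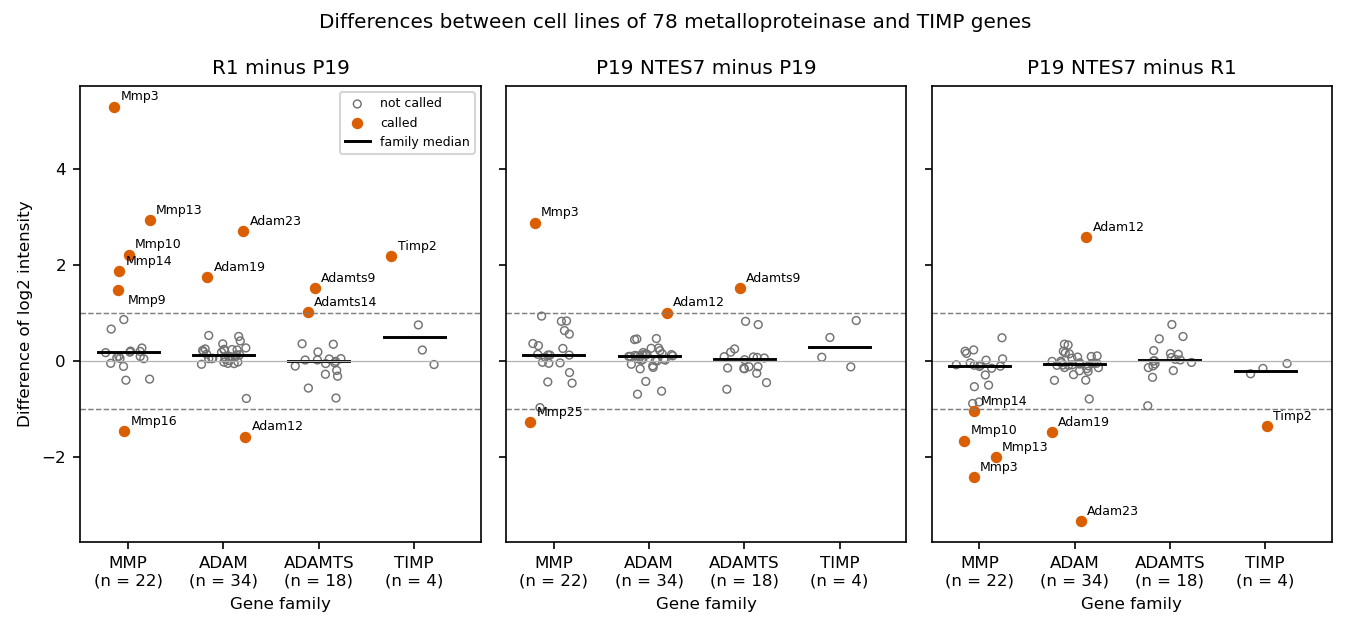
Difference of log2 intensity between lines for each of the 78 genes (points), by family, in the 3 comparisons. Filled points are called genes, open points are genes that were not called, bars are family medians and dashed lines mark a fold of 2. Mmp3 had the highest difference of R1 from P19 (5.31), and Adam23 the lowest difference of P19 NTES7 from R1 (-3.33).

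Of the 78 members, 47 were below the median of all array values in every line, 18 were above it in all lines and 13 in some. Over all 19938 genes, 8705 were below it in every line and 9248 above it in all lines. By family, 12 of 22 MMPs, 24 of 34 ADAMs, 10 of 18 ADAMTS genes and 1 of 4 TIMPs were below it in every line. These 47 include the ADAM genes known from sperm and testis, such as Adam2, Adam3, Adam5 and Adam32, and none of the 47 was called in any of the 3 comparisons. The array does not give a detection call, and this median is not a detection limit. Whether a gene below it was expressed is not known here, and folds against such a level are not exact. All 12 members called between R1 and P19 had a line above the median, and so did 1451 of the 1457 genes called there. Of all genes called in P19 NTES7, 562 of 564 against P19 and 896 of 900 against R1 did. Genes low in every line were thus seldom called, and neither count is particular to the members. The 54 members outside the plot of single arrays ran from an intensity of 5.74 to 45.3, the latter for Adam15, a widely expressed ADAM. Their log2 differences of R1 from P19 lay between -0.78 (Adam11) and 0.87 (Mmp19), and those of P19 NTES7 from P19 between -0.69 (Adam22) and 0.83 (Mmp12). Against R1 those of P19 NTES7 lay between -0.79 (Adam22) and 0.52 (Adamts10).

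**Figure D2:**
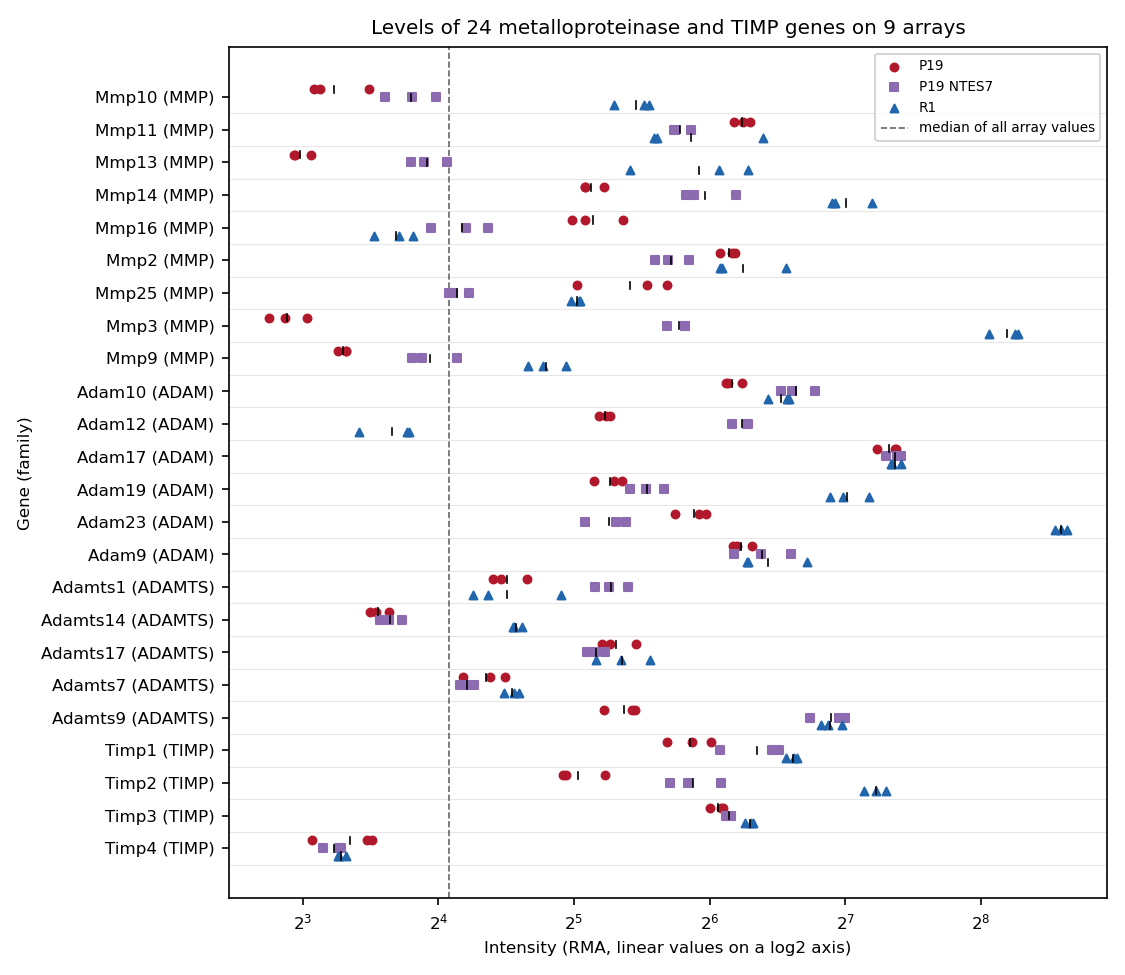
Intensity on each of the 9 arrays (points, by line; log2 axis) of the 24 genes that were called in any comparison, are TIMPs or are among the 4 brightest of the MMP, ADAM or ADAMTS family. Short bars are geometric means of 3 arrays and the dashed line is the median of all array values (16.9). Mmp3 spans the widest range, and Adam17 and Timp3 lie close together in the 3 lines.

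Among the secreted MMPs, the stromelysins Mmp3 and Mmp10 and the collagenase Mmp13 were near the array floor in P19 and called higher in R1. Mmp3, or stromelysin 1, which cuts many matrix proteins and activates other MMPs, was at 6.73, 7.304 and 8.19 on the P19 arrays, 51.5, 56.5 and 56.4 on the P19 NTES7 arrays and 309, 304 and 267 on the R1 arrays. The 3 lines did not overlap, and every P19 NTES7 array lay between the other lines. Arrays without overlap were common: over all genes, 47.4% in R1 against P19, 36.2% in P19 NTES7 against P19 and 39% in P19 NTES7 against R1. Among the members the shares were 43.6%, 46.2% and 35.9%, so the lack of overlap describes a gene and is not particular to the members. Mmp3 was 39.6-fold higher in R1 than in P19 (log2 difference 5.31, standard error 0.11, adjusted p = 1.26e-12), where the P19 level was under the array median. It was 7.42-fold higher in P19 NTES7 than in P19 (log2 difference 2.89, standard error 0.11, adjusted p = 8.17e-10) and 5.35-fold lower than in R1 (log2 difference -2.42, standard error 0.11, adjusted p = 2.07e-09). With values below the array median set to it, the folds against P19 were 17.6 for R1 and 3.30 for P19 NTES7, since the P19 level lay below that median. Mmp3 was the only MMP called in all 3 comparisons.

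Mmp13, the main interstitial collagenase of rodents, was at 8.33, 7.65 and 7.68 on the P19 arrays, 14.9, 16.7 and 13.9 on the P19 NTES7 arrays and 67.2, 78.1 and 42.6 on the R1 arrays. The R1 arrays were all higher than the others but spread widely, with array 3 the lowest of them. Mmp13 rose from P19 to R1 (log2 difference 2.95, standard error 0.17, adjusted p = 2.21e-08) and was lower in P19 NTES7 than in R1 (log2 difference -2.00, standard error 0.17, adjusted p = 1.82e-06). Between P19 NTES7 and P19 the fold was 1.92 (log2 difference 0.94, standard error 0.17, adjusted p = 0.00177), under the fold limit, with both lines below the array median. With such values set to the array median, the log2 difference of R1 from P19 was 1.87. Without P19 NTES7 array 3, the log2 difference from P19 to P19 NTES7 was 1.001 and passed the limit.

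Mmp10, or stromelysin 2, was at 8.45, 8.74 and 11.2 on the P19 arrays, 12.2, 15.8 and 13.9 on the P19 NTES7 arrays and 45.7, 47.02 and 39.2 on the R1 arrays. R1 alone was above the array median, and its arrays did not overlap those of the other lines. The gene was higher in R1 than in P19 (log2 difference 2.22, standard error 0.13, adjusted p = 2.48e-08) and lower in P19 NTES7 than in R1 (log2 difference -1.66, standard error 0.13, adjusted p = 8.81e-07). Between P19 NTES7 and P19 its log2 difference was 0.57 (adjusted p = 0.00893), under the fold limit. With values below the array median set to it, the fold of R1 over P19 was 2.64. With 16 added before log2, the log2 difference of P19 NTES7 from R1 was -0.9992, just short of the fold limit.

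Mmp3, Mmp10 and Mmp13 are neighbours in a run of 10 measured Mmp genes on chromosome 9, with 0 other protein-coding genes between them in the GRCm38.p6 annotation. The order is Mmp13, Mmp12, Mmp1b, Mmp3, Mmp1a, Mmp10, Mmp8, Mmp27, Mmp20 and Mmp7. The 3 genes called higher in R1 were thus not next to each other, and the genes between them were not called. Mmp12, macrophage elastase, came next in this run, at 12.7 ± 1.23 in P19, 21.2 ± 8.68 in R1 and 22.8 ± 3.38 in P19 NTES7 (mean ± SD, n = 3 arrays), with a log2 difference of R1 from P19 of 0.67 (adjusted p = 0.0257). Its R1 array 3, at 31.3, stood above the other R1 arrays, at 16.1 and 16.4. Mmp1a and Mmp8, a pair of further collagenases, stayed at or under 8.71 on all 9 arrays.

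**Figure D3:**
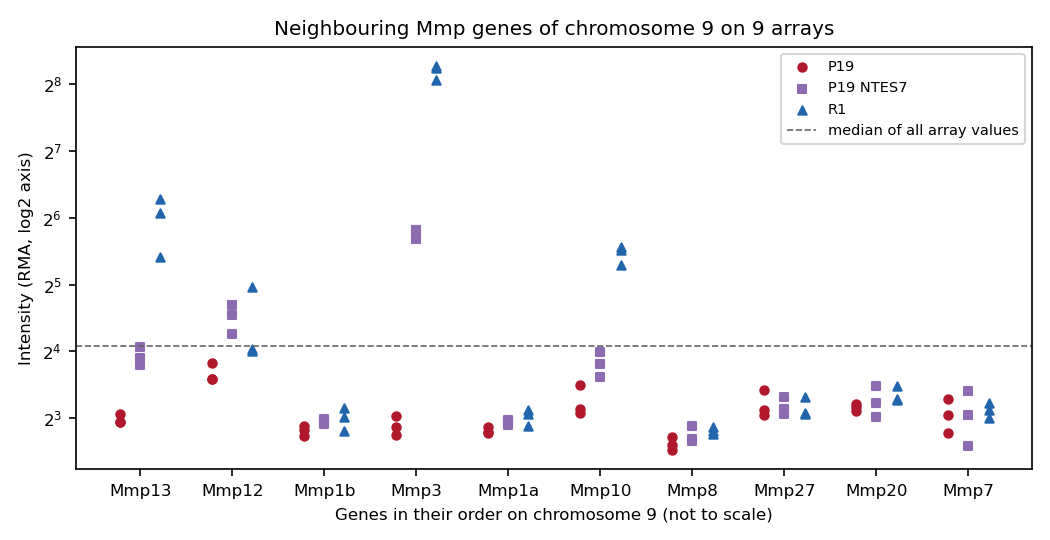
Intensity on each of the 9 arrays (log2 axis) of the 10 neighbouring Mmp genes of chromosome 9, in chromosomal order and not to scale. Points are arrays, coloured by line, and the dashed line is the median of all array values. Mmp13, Mmp3 and Mmp10 stand out in R1, with other Mmp genes at lower values between them.

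The promoters of these genes are shown because the 3 called members share a short sequence there that also stands in neighbours that were not called. AP-1, the dimer of Fos and Jun proteins, is known to bind TGACTCA, which is TGAGTCA on the other strand. Such a site is a well-known feature of stromelysin and collagenase promoters. The pattern searched here, TGANTCA, allows any middle base, so a counted match need not be this known site. The RefSeq sequences below (GRCm38.p6, plus strand) hold the 150 bases before the annotated start of Mmp13 (chr9:7272364-7272513), Mmp3 (chr9:7445672-7445821), Mmp10 (chr9:7502192-7502341) and, as a neighbour that stayed near the array floor, Mmp1a (chr9:7463991-7464140). Capitals mark the TGANTCA match.
Mmp13: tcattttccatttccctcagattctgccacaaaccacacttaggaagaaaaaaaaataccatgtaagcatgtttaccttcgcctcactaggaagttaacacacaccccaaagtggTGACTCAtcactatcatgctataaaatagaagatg
Mmp3: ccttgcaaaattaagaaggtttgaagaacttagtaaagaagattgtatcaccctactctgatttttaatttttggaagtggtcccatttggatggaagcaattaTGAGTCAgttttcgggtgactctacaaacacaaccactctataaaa
Mmp10: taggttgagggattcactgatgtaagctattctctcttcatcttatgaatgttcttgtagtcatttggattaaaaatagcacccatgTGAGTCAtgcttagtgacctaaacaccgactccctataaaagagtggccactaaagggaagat
Mmp1a: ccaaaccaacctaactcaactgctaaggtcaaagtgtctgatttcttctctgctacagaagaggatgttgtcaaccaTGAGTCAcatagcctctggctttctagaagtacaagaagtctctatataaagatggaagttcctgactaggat
The match began 35 bases before the start in Mmp13, 46 in Mmp3, 63 in Mmp10 and 73 in Mmp1a. In windows from 250 bases before to 50 bases after a start, 8 of the 10 genes of this run held it, 3 of them called higher in R1 and 5 not called, and Mmp8 and Mmp27 did not hold it. Of the 78 members, 48 had a window, and 13 of these held the match (27.1%), against 2425 of 27025 genes in all (8.97%). Of these 13, 8 belonged to this run of neighbours, for which the sequence was chosen. The percentage thus does not describe the members in general. Of the 9 members called higher in R1 with a window, 4 held it, and of the 39 not called, 9 did. Outside this run, the matches of members were in a window of each of Adam19, Adam1b, Adam20, Adam25 and Adam29, and of these Adam19 was called higher in R1. A match is a description of the letters and not of binding in these cells.

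Among the gelatinases and the membrane-bound MMPs, Mmp9 and Mmp14 rose in R1, Mmp16 fell and Mmp2 was not called. Mmp14, or MT1-MMP, a membrane collagenase that activates the zymogen of MMP2 in a complex with TIMP2, was at 33.8, 37.2 and 33.9 on the P19 arrays, 73.1, 56.8 and 59.1 on the P19 NTES7 arrays and 122, 119.7 and 147 on the R1 arrays. The lines did not overlap, and P19 NTES7 lay in between. Mmp14 was 3.69-fold higher in R1 than in P19 (log2 difference 1.88, standard error 0.12, adjusted p = 4.42e-08) and 2.06-fold lower in P19 NTES7 than in R1 (log2 difference -1.04, standard error 0.12, adjusted p = 2.24e-05). The latter call lies at the fold limit: the log2 difference was -0.95 without R1 array 3, -0.97 without P19 NTES7 array 2 and -0.9992 without P19 NTES7 array 3, each just under the limit in size. It was -0.88 with 16 added before log2. Its difference between P19 NTES7 and P19 was under the limit (log2 difference 0.84, standard error 0.12, adjusted p = 2.31e-04).

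Mmp2, or gelatinase A, the target of MMP14, was at 67.5, 72.7 and 71.9 on the P19 arrays, 57.5, 48.3 and 51.8 on the P19 NTES7 arrays and 68.1, 67.6 and 94.3 on the R1 arrays. R1 array 3 was higher than the other R1 arrays, which lay among those of P19, and the log2 difference of R1 from P19 was 0.10 (adjusted p = 0.609). P19 NTES7 was lower than R1 by 1.45-fold (adjusted p = 0.00769), under the fold limit. Mmp9, or gelatinase B, known from trophoblast and leukocytes, was at 9.96, 9.597 and 9.99 on the P19 arrays, 17.6, 13.99 and 14.7 on the P19 NTES7 arrays and 25.3, 27.3 and 30.7 on the R1 arrays. The lines did not overlap, with P19 NTES7 in between. Mmp9 was 2.81-fold higher in R1 than in P19 (log2 difference 1.49, standard error 0.11, adjusted p = 1.91e-07), with P19 and P19 NTES7 below the array median. With values below the array median set to it, the log2 difference was 0.74, and with 16 added before log2 it was 0.76, both under the fold limit.

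Mmp16 and Mmp25 had their highest mean level in P19. Mmp16, or MT3-MMP, a transmembrane member that also activates MMP2, was at 31.6, 33.9 and 41.02 on the P19 arrays, 20.6, 18.5 and 15.4 on the P19 NTES7 arrays and 11.5, 13.1 and 14.1 on the R1 arrays. It was 2.75-fold lower in R1 than in P19 (log2 difference -1.46, standard error 0.13, adjusted p = 1.45e-06), and the P19 NTES7 arrays lay between the lines (log2 difference from P19 -0.97, adjusted p = 1.69e-04), just under the fold limit. That value was -1.05 without P19 array 1 and -1.06 without P19 NTES7 array 1, and each passed the limit. The R1 level of Mmp16 was below the array median, and with 16 added before log2 the log2 difference of R1 from P19 was -0.83, under the limit. Mmp25, a member held by a lipid anchor and known from leukocytes, was at 46.5, 51.4 and 32.5 on the P19 arrays, 18.7, 16.9 and 17.3 on the P19 NTES7 arrays and 32.8, 31.5 and 32.98 on the R1 arrays. It fell from P19 to P19 NTES7 (log2 difference -1.28, standard error 0.14, adjusted p = 2.82e-05), with R1 not called against either line. P19 array 3 lay among the R1 arrays, and all P19 NTES7 arrays were below the rest. With 16 added before log2, the difference between P19 NTES7 and P19 was -0.81 on the log2 scale, under the limit. Mmp11, or stromelysin 3, was at 72.4, 75.9 and 78.5 on the P19 arrays, 58.1, 53.5 and 53.7 on the P19 NTES7 arrays and 48.2, 49.02 and 84.1 on the R1 arrays, and none of its comparisons was called (adjusted p from 0.0843 to 0.791). R1 array 3 lay above the P19 arrays there, and the other R1 arrays lay below those of both other lines.

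The ADAM genes that differed were the adhesion gene Adam23 and the meltrins Adam12 and Adam19, while the sheddases Adam10, Adam17 and Adam9 were not called. Adam23, which has lost the catalytic site and acts as an adhesion protein of neurons, was at 53.7, 62.9 and 60.7 on the P19 arrays, 41.8, 39.7 and 33.8 on the P19 NTES7 arrays and 386, 373 and 398 on the R1 arrays. R1 stood far above the other lines, and every P19 NTES7 array was below every P19 array. Adam23 was 6.54-fold higher in R1 than in P19 (log2 difference 2.71, standard error 0.11, adjusted p = 4.24e-10) and 10.1-fold lower in P19 NTES7 than in R1 (log2 difference -3.33, standard error 0.11, adjusted p = 1.77e-10). Its log2 difference of P19 NTES7 from P19 was -0.62 (adjusted p = 9.74e-04), under the fold limit and away from the R1 level. All 3 lines were above the array median.

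Adam19, or meltrin beta, a protease of heart and nerve development, was at 39.3, 35.5 and 40.9 on the P19 arrays, 50.8, 42.5 and 46.2 on the P19 NTES7 arrays and 127, 118 and 144 on the R1 arrays. The R1 arrays were well apart from the rest, and P19 NTES7 lay just above P19. Adam19 rose from P19 to R1 (log2 difference 1.75, standard error 0.11, adjusted p = 3.80e-08) and was lower in P19 NTES7 than in R1 (log2 difference -1.48, standard error 0.11, adjusted p = 3.84e-07), and P19 NTES7 was not called against P19 (fold 1.21, adjusted p = 0.114).

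Adam12, or meltrin alpha, known from muscle and mesenchyme, was the only member called higher in P19 NTES7 than in R1. It was at 36.3, 37.7 and 38.4 on the P19 arrays, 71.9, 78.04 and 77.3 on the P19 NTES7 arrays and 13.6, 13.8 and 10.7 on the R1 arrays. The arrays of the 3 lines did not overlap, with P19 NTES7 the highest and R1 the lowest, below the array median. Adam12 was 6.01-fold higher in P19 NTES7 than in R1 (log2 difference 2.59, standard error 0.11, adjusted p = 1.63e-09) and 2.98-fold lower in R1 than in P19 (log2 difference -1.57, standard error 0.11, adjusted p = 1.07e-07). The rise from P19 to P19 NTES7 was 2.02-fold (log2 difference 1.01, standard error 0.11, adjusted p = 2.22e-05), at the fold limit: the log2 difference was 0.99 without P19 array 1, 0.99 without P19 NTES7 array 2 and 0.9995 without P19 NTES7 array 3, each just under the limit. It was 0.97 with each array centred on its median and 0.78 with 16 added before log2. With 16 added, the log2 difference of R1 from P19 was -0.90, under the limit.

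Adam17, the sheddase of TNF and of several EGF receptor ligands, was at 150.4, 165 and 166 on the P19 arrays, 169.8, 167 and 158 on the P19 NTES7 arrays and 162, 163 and 169.97 on the R1 arrays. All 3 lines overlapped, and the log2 differences were 0.04 for R1 against P19 (standard error 0.09, adjusted p = 0.791) and 0.04 for P19 NTES7 against P19 (standard error 0.09, adjusted p = 0.824). Adam10, the sheddase that starts the cleavage of Notch, was at 71.8 ± 3.24 in P19, 92.4 ± 5.34 in R1 and 99.9 ± 9.09 in P19 NTES7 (mean ± SD, n = 3 arrays). Its P19 arrays were below all the others, by 1.28-fold against R1 (adjusted p = 0.0125) and 1.39-fold against P19 NTES7 (adjusted p = 0.00427), under the fold limit. Adam9, or meltrin gamma, was at 75.1 ± 3.77 in P19, 87.1 ± 15.98 in R1 and 84.2 ± 12.2 in P19 NTES7, and the arrays of all lines overlapped (adjusted p from 0.306 to 0.872).

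Of the ADAMTS genes, Adamts9 was higher in both stem cell lines than in P19, and Adamts14 was higher in R1 than in P19. Adamts9, a protease that cuts versican and is needed in the early mouse embryo, was at 43.6, 37.3 and 43.1 on the P19 arrays, 124, 128 and 107 on the P19 NTES7 arrays and 113, 117 and 126 on the R1 arrays. P19 NTES7 and R1 overlapped (log2 difference 0.01, standard error 0.11, adjusted p = 0.967), and both were above all P19 arrays. The fold was 2.87 for R1 against P19 (log2 difference 1.52, standard error 0.11, adjusted p = 1.01e-07) and 2.89 for P19 NTES7 against P19 (log2 difference 1.53, standard error 0.11, adjusted p = 3.56e-07). The gene has 6 probe sets, all above the array median. Their log2 differences ran from 0.39 to 1.52 for R1 against P19 and from 0.72 to 1.53 for P19 NTES7 against P19, and 2 of the 6 were called in each. For P19 NTES7 against R1 they ran from 0.01, for the brightest, to 0.51, and 0 were called. With the median over the 6, the log2 difference of R1 from P19 was 0.87, under the fold limit.

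Adamts14, an aminopropeptidase of procollagens, was at 11.6, 11.3 and 12.4 on the P19 arrays, 11.9, 12.4 and 13.3 on the P19 NTES7 arrays and 23.5, 24.5 and 23.4 on the R1 arrays. R1 was above both other lines, which overlapped below the array median. The call in R1 against P19 lies at the fold limit (log2 difference 1.02, standard error 0.09, adjusted p = 1.27e-06): the log2 difference was 0.99 without P19 array 2, 0.997 without R1 array 2, 0.98 after quantile normalization and 0.99 with each array centred on its median, all just under the limit. With values below the array median set to it, the difference was 0.52. Adamts1, a versican-cleaving protease that also binds VEGF, was at 22.8 ± 2.12 in P19, 23.2 ± 5.88 in R1 and 38.7 ± 3.35 in P19 NTES7 (mean ± SD, n = 3 arrays). The P19 NTES7 arrays were above all others, by 1.698-fold against P19 (adjusted p = 0.00276) and 1.70-fold against R1 (adjusted p = 0.00185), under the fold limit. Adamts7 and Adamts17, the other ADAMTS genes among the 4 brightest, were not called, with log2 differences between -0.34 and 0.19 and between -0.20 and 0.05 over the 3 comparisons. Adamts17 has 5 probe sets, of which 0 were called.

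Of the inhibitors, Timp2 rose in R1 and the other 3 TIMPs were not called. Timp2, which inhibits MMPs and also takes part in the activation of MMP2 by MMP14, was at 30.2, 30.6 and 37.6 on the P19 arrays, 67.8, 57.4 and 52.3 on the P19 NTES7 arrays and 149.99, 158 and 141 on the R1 arrays. The lines did not overlap, and P19 NTES7 lay in between. Timp2 was 4.58-fold higher in R1 than in P19 (log2 difference 2.20, standard error 0.12, adjusted p = 1.20e-08) and 2.54-fold lower in P19 NTES7 than in R1 (log2 difference -1.35, standard error 0.12, adjusted p = 2.38e-06), and its fold between P19 NTES7 and P19 was 1.801 (adjusted p = 2.26e-04), under the limit.

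Timp1, a secreted inhibitor of most MMPs, was at 64.3, 58.5 and 51.5 on the P19 arrays, 88.1, 91.5 and 67.4 on the P19 NTES7 arrays and 98.8, 94.6 and 100.3 on the R1 arrays. The order of the lines was the same as for Timp2, but the difference of R1 from P19 was 1.69-fold (adjusted p = 3.39e-04), under the fold limit. Timp3, which is bound to the matrix and inhibits ADAM17 and ADAMTS enzymes as well as MMPs, was at 68.6, 67.7 and 64.3 on the P19 arrays, 71.5, 69.6 and 71.3 on the P19 NTES7 arrays and 80.05, 79.2 and 76.5 on the R1 arrays. Its arrays did not overlap either, yet the step from P19 to R1 was small (log2 difference 0.23, standard error 0.09, adjusted p = 0.0550). Timp4 was below the array median in all lines, at 8.38 to 11.4 over the 9 arrays.

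The members called between R1 and P19 took different positions in P19 NTES7. The share of the way from P19 to R1 sets the log2 step from P19 to P19 NTES7 over the log2 step from P19 to R1, with 0 at the P19 level and 1 at the R1 level. P19 arrays enter both parts of this share, so it is given as a description. It was 1.01 for Adamts9, 0.664 for Mmp16 and 0.544 for Mmp3. Over the 6 probe sets of Adamts9 the share ran from 1.01, for the brightest, to 2.30. Mmp14, Mmp9 and Timp2 were at 0.447, 0.429 and 0.387, and Mmp13 and Mmp10 at 0.3196 and 0.255. Adam19 and Adamts14 lay near P19, at 0.154 and 0.0872. Adam23 and Adam12 moved away from the R1 level, at -0.2303 and -0.645. Where the level in a line is below the array median, as in P19 for Mmp3, Mmp9, Mmp10, Mmp13 and Adamts14 and in R1 for Mmp16 and Adam12, the share is not exact. With such values set to the array median, the share was 0.0251 for Mmp13, 0.0335 for Mmp10, 0.0988 for Mmp9, 0.416 for Mmp3, 0.851 for Mmp16, -0.881 for Adam12 and 0.0899 for Adamts14.

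Markers of fibroblasts, the feeder cells of stem cell culture, were higher in R1 than in P19, as the 10 members above were. Of 25 measured fibroblast markers, 18 were called higher and 0 lower in R1 than in P19, and in P19 NTES7 against P19 the counts were 14 and 0. Their summed intensity was 470.2 to 524 on the P19 arrays, 1931 to 2213 on the R1 arrays and 1415 to 1695 on the P19 NTES7 arrays. Col1a1, the main collagen chain of fibroblasts, was at 49.2 ± 11.6 in P19, 342 ± 29.6 in R1 and 297 ± 61.3 in P19 NTES7 (mean ± SD, n = 3 arrays), and Dcn, the matrix proteoglycan decorin, at 8.45 ± 0.245 in P19, 232 ± 70.5 in R1 and 80.6 ± 7.23 in P19 NTES7. Pdgfra, a receptor of mesenchymal cells, was at 9.79 ± 0.8304 in P19, 48.7 ± 4.23 in R1 and 49.4 ± 4.45 in P19 NTES7. Of the 25 markers, 17 were below the array median in P19, 2 in R1 and 4 in P19 NTES7. In bulk RNA, fewer cells of a type and less RNA per cell cannot be told apart.

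Between P19 NTES7 and R1 the marker sums did not overlap either, with R1 the higher. The median log2 difference of P19 NTES7 from R1 over the 25 markers was -0.49, and single markers ran from -1.62 for Lum to 0.72 for Pdpn. There 3 markers were called lower in P19 NTES7, namely Lum, Dcn (-1.49) and Prrx1 (-1.37), and 0 higher. Of the 7 members called lower in P19 NTES7 than in R1, Adam23, Mmp3, Mmp13 and Mmp10 were at -3.33, -2.42, -2.00 and -1.66. Adam19, Timp2 and Mmp14 were at -1.48, -1.35 and -1.04. On R1 array 3, 17 of the 25 markers were above both other R1 arrays and 6 below, and of the 78 members 28 were above and 43 below. Mmp3, Mmp10 and Mmp13 were among the latter, and Mmp2 and Mmp14 among the former. The same counts were not made over all genes. R1 arrays 1 and 2 were close to each other (SD of their log2 difference 0.125), so array 3 can lie outside both by a small step. Adam12 and Adam23 differed from the marker sum in order: the sum was lowest in P19, Adam12 was lowest in R1 and Adam23 lowest in P19 NTES7. Single markers could differ from the sum as well. Pdpn was lowest in R1, as Adam12 was, at 95.5 ± 8.97 in P19, 67.4 ± 10.5 in R1 and 110 ± 11.6 in P19 NTES7. The part of fibroblast RNA in the levels of the members was not tested. Of the 12 markers of pluripotent cells, 6 were called higher and 0 lower in R1 than in P19, and 6 were called lower and 0 higher in P19 NTES7 than in R1. In P19 NTES7 against P19, 6 were called higher and 1 lower, the latter being Utf1, a cofactor of undifferentiated cells, at 471 ± 70.4 in P19, 584 ± 79.1 in R1 and 73.5 ± 20.3 in P19 NTES7. The list thus had no single order of the lines. Esrrb, a factor of the naive state, was at 9.26 ± 1.25 in P19, 229.8 ± 10.6 in R1 and 32.4 ± 2.48 in P19 NTES7 (mean ± SD, n = 3 arrays).

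**Figure D4:**
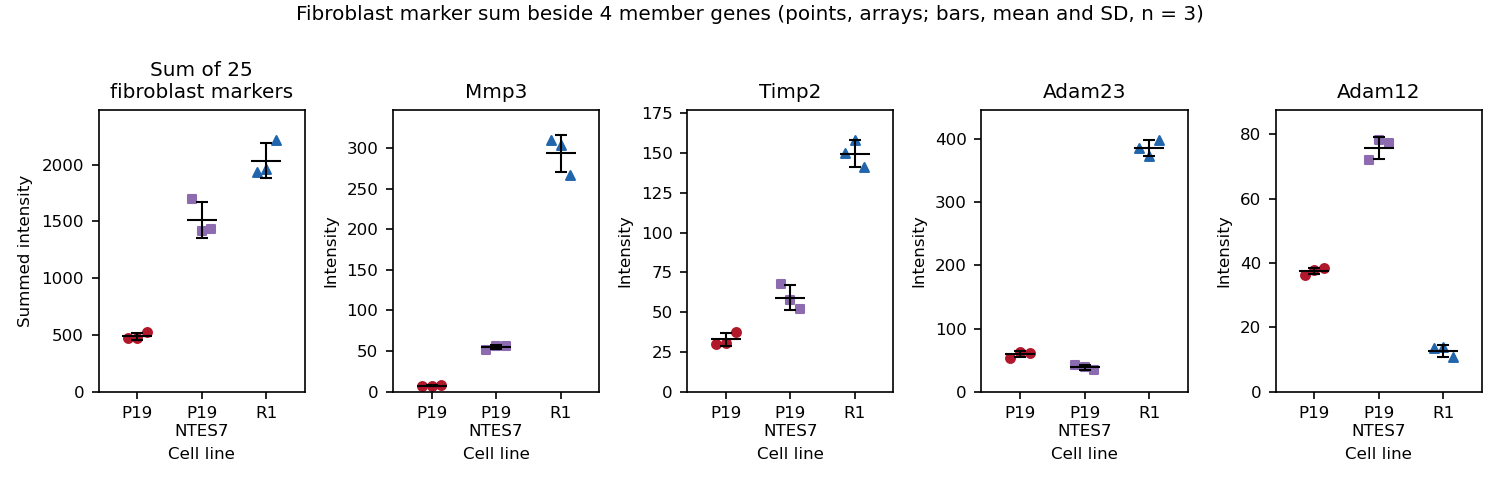
Summed intensity of 25 fibroblast marker genes beside the intensities of Mmp3, Timp2, Adam23 and Adam12 on the 9 arrays (points), with the mean and SD of each line (bars, n = 3 arrays). The marker sum is at 1415 to 1695 in P19 NTES7 and 1931 to 2213 in R1, and Mmp3 is at 51.5 to 56.5 and 267 to 309.

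Fewer markers of the other cell types known for metalloproteinases were called, and their part in the levels of the members was not tested. Of 16 endoderm markers, 1 was called higher in R1 than in P19 (Thbd, or thrombomodulin) and 0 lower, and in P19 NTES7 1 was called higher than in P19 (Gata6) and 0 lower. Of 11 measured trophoblast markers, 2 were called higher in R1 (Eomes and Tfap2c) and 4 in P19 NTES7 (also the keratin genes Krt8 and Krt18), and 0 lower. Eomes, which also marks the primitive streak, was at 27.2 ± 6.16 in P19, 79.2 ± 8.38 in R1 and 146 ± 12.4 in P19 NTES7 (mean ± SD, n = 3 arrays), and Cdx2, a defining factor of trophoblast, at 10.9 ± 1.11 in P19, 14.2 ± 2.38 in R1 and 10.2 ± 0.469 in P19 NTES7, below the array median in all lines.

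Genes of extracellular proteolysis outside these families were compared by list. In the plasminogen system, which activates several MMP zymogens, 3 of 7 measured genes were called higher in R1 than in P19 and 0 lower, and 0 were called between P19 NTES7 and P19. These were Plau, the urokinase-type plasminogen activator, at 14.8 ± 0.393 in P19, 31.2 ± 4.61 in R1 and 16.2 ± 1.199 in P19 NTES7 (mean ± SD, n = 3 arrays), its receptor gene Plaur, at 10.7 ± 0.626 in P19, 26.5 ± 6.62 in R1 and 14.2 ± 2.32 in P19 NTES7, and Serpinb2, an inhibitor of plasminogen activators, at 8.91 ± 0.0569 in P19, 25.8 ± 8.198 in R1 and 10.2 ± 0.971 in P19 NTES7. All 3 were below the array median in P19.

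Among 13 other inhibitors and modulators, A2m had the largest change and went the opposite way. A2m, alpha-2-macroglobulin, which traps proteases of every class, was at 1902, 2004 and 2193 on the P19 arrays, 988, 915 and 880.01 on the P19 NTES7 arrays and 73.2, 71.1 and 104 on the R1 arrays. It fell from P19 to R1 (log2 difference -4.64, standard error 0.14, adjusted p = 4.25e-11) and from P19 to P19 NTES7 (log2 difference -1.13, standard error 0.14, adjusted p = 5.38e-05). Tfpi2, a matrix-bound serine protease inhibitor, Cst3, which encodes the cysteine protease inhibitor cystatin C, and Lcn2, whose product binds MMP9, were the 3 of the list called higher in R1, at 35.96 ± 0.975, 424 ± 30.5 and 27.98 ± 4.704 there and 14.5 ± 0.321, 182 ± 9.27 and 8.41 ± 0.644 in P19. Of 4 convertases, which cut zymogens, 1 was called higher in R1: Pcsk6, at 24.9 ± 3.08 in P19, 75.2 ± 10.9 in R1 and 19.6 ± 0.882 in P19 NTES7.

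Of 6 astacin metalloproteinases, 1 was called higher in R1 than in P19 and 1 lower. Bmp1, which removes the C-terminal propeptide of procollagens, was at 21.8 ± 1.92 in P19, 55.2 ± 11.9 in R1 and 42.2 ± 5.15 in P19 NTES7 (mean ± SD, n = 3 arrays), and Mep1b, a meprin subunit, at 28.6 ± 3.402 in P19, 14.1 ± 1.44 in R1 and 22.6 ± 1.22 in P19 NTES7. Of 9 partners of ADAM10 and ADAM17, Rhbdf1, which encodes an iRhom needed for ADAM17 traffic, was the 1 called higher in R1, at 14.5 ± 2.102 in P19, 36.7 ± 3.83 in R1 and 18.6 ± 1.39 in P19 NTES7, and 0 were called in P19 NTES7 against P19. Of 7 measured EGF receptor ligands that such enzymes release, 2 were called higher in R1 than in P19 and 0 lower. Hbegf was at 22.002 ± 3.65 in P19, 58.5 ± 3.23 in R1 and 47.7 ± 4.99 in P19 NTES7, and was also called in P19 NTES7 against P19 (log2 difference 1.13, standard error 0.13, adjusted p = 3.41e-05). Ereg, or epiregulin, was at 7.61 ± 0.499 in P19, 32.2 ± 0.524 in R1 and 11.7 ± 0.986 in P19 NTES7.

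Of 10 ADAMTS substrates and ADAMTS-like genes, 1 was called higher and 1 lower in R1 than in P19. Vcan, the versican cut by ADAMTS1 and ADAMTS9, was at 56.4, 40.3 and 43.2 on the P19 arrays, 36.05, 35.5 and 30.02 on the P19 NTES7 arrays and 203, 199 and 211 on the R1 arrays. It rose from P19 to R1 (log2 difference 2.14, standard error 0.13, adjusted p = 2.19e-08) and was lower in P19 NTES7 than in R1 (log2 difference -2.60, standard error 0.13, adjusted p = 6.73e-09), and it was not called in P19 NTES7 against P19, where Adamts9 was. Ncan, the brain proteoglycan neurocan, was at 52.6 ± 5.86 in P19, 17.7 ± 2.62 in R1 and 14.04 ± 0.728 in P19 NTES7.

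Of 11 AP-1 and ETS factor genes, 4 were called higher in R1 than in P19 and 0 lower, and in P19 NTES7 against P19 the counts were 3 and 1. Fos, an AP-1 subunit, was at 9.22, 8.24 and 9.66 on the P19 arrays, 114, 80.3 and 90.9 on the P19 NTES7 arrays and 49.4, 50.6 and 94.3 on the R1 arrays. The P19 arrays were below all others, and R1 array 3 lay among those of P19 NTES7. Fosb was at 10.7 ± 1.67 in P19, 85.6 ± 21.7 in R1 and 137 ± 8.33 in P19 NTES7 (mean ± SD, n = 3 arrays), and Jun, their dimer partner, at 69.4 ± 19.1 in P19, 105 ± 37.7 in R1 and 345 ± 52.99 in P19 NTES7. Fos, Fosb and Jun had their highest mean level in P19 NTES7, and Jun was called higher there than in R1 (log2 difference 1.77, standard error 0.22, adjusted p = 5.22e-05). Jun was not called in R1 against P19 (log2 difference 0.57, adjusted p = 0.0695), and Junb and Jund were not called in any comparison. Fosl1, or Fra-1, was called in R1 against P19 alone, at 8.56 ± 0.288 in P19, 21.96 ± 2.08 in R1 and 15.3 ± 1.77 in P19 NTES7. A link of these factors to the levels of the Mmp genes was not tested.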

How the data were processed

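Intensities of the 9 arrays (GeneChip Gene 1.0 ST, 100 ng total RNA each) were used as deposited. Per the labels and methods, the authors normalized them with RMA, and the deposited intensity values are on the linear scale. The median scaling named in the methods is absent from these values, and no genome build is given in the sources used here. Raw images were not used here. The platform annotation gave 21789 of 28853 probe sets 1 symbol, 1621 several and 5443 none, and the 78 members, held by 102 probe sets, all matched RefSeq (GRCm38.p6).

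limma (3.58.1, in R 4.3.3) was run on log2 values of every probe set, with 1 mean per line. A call needed a Benjamini-Hochberg adjusted p under 0.01 and a fold over 2. Errors are SDs over arrays for levels and standard errors for log2 differences. The number of arrays limits the precision: the median SD of a log2 value was 0.106 in P19, 0.121 in R1 and 0.132 in P19 NTES7. The fit was tested on simulated data of R1 against P19, with 50 probe sets changed at each fold. It called 0 of them at a fold of 1.5, 21 at 2, 50 at 3 and 49 at 6, and 0 unchanged probe sets. A gene at the fold limit can thus go uncalled. The members and the 12 lists (138 entries, 131 measured) were chosen with earlier results of these data known. Genes named are members called in any comparison, the TIMPs, the 4 brightest of each other family and up to 4 called genes of a list; others were chosen after their values were seen. Arrays with the same replicate number were not paired: correlations of their deviations from the line mean ran from -0.22 to 0.04.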

Additional observations from a re-analysis of the deposited data

How the results depend on the processing

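Of the 24 calls of members, 15 were kept under each of 22 alternatives, among them all calls of Mmp3, Mmp13, Adam19, Adam23 and Timp2. Of the other 9, 8 were lost with 16 added before log2, and that of Adamts9 in R1 against P19 with the median over its probe sets. With 16 added before log2, 0 members were called lower in R1 against P19 and 0 in P19 NTES7 against P19. With each array centred on its median, 2 were called lower in P19 NTES7 against P19. With no fold limit, 5 members passed as lower in R1 against P19, where 14.3% of all genes did. In P19 NTES7 against P19, 12 passed as higher (4.89% of all genes) and 5 as lower (7.25%). Against R1, 2 passed as higher in P19 NTES7 (9.23% of all genes) and 14 as lower (9.44%). Leaving out 1 array at a time gave 1 to 2 members lower in P19 NTES7 against P19, the additional one being Mmp16. With the replicate block, 10 members were called higher and 2 lower in R1 against P19, and no other count or call of members changed. The methods' one-way ANOVA, unadjusted or with Benjamini-Hochberg adjustment, gave 10 and 2 members in that comparison and the same other counts. The alternative with R1 arrays 1 and 2 averaged was added after the data had been seen.

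The values that changed sign were of comparisons not called for that gene. With each array centred on its median, the log2 difference of Adam17 was -0.0081 in P19 NTES7 against P19 and -0.0223 against R1, and that of Adamts9 in P19 NTES7 against R1 was -0.0135. Adamts1 in R1 against P19 was 0.0047 with 16 added. With values below the array median set to it, Timp4 was 0.0242 in R1 against P19, 0.047 in P19 NTES7 against P19 and 0.0228 in P19 NTES7 against R1. By the median over its probe sets, Adamts17 was -0.1648, 0.0011 and 0.1659 in the same comparisons. With R1 arrays 1 and 2 averaged, Adam17 and Adamts9 in P19 NTES7 against R1 were -0.011 and -0.0125, and Adamts1 and Adamts17 in R1 against P19 were 0.0973 and -0.0016. Leaving out 1 array at a time, values ran in R1 against P19 from -0.059 to 0.1818 for Mmp2, from -0.0079 to 0.0623 for Adam17, from -0.2002 to 0.1251 for Adamts1, from -0.0538 to 0.1434 for Adamts17 and from -0.2112 to 0.0107 for Timp4. In P19 NTES7 they ran from -0.0075 to 0.0704 for Adam17 against P19, and against R1 from -0.2219 to 0.18 for Mmp11, from -0.0214 to 0.0319 for Adam17, from -0.1482 to 0.1039 for Adam9 and from -0.0411 to 0.0866 for Adamts9. The cause was not tested. Probes near the array floor limit the precision of low members.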

Other observations

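Adamts3, an aminopropeptidase of procollagens, was measured by 16 probe sets, and the brightest of them, which represented the gene, was not the one that moved most. Its log2 difference of R1 from P19 was -0.27, while the 16 ran from -1.07 to 0.01 with a median of -0.42. Of the 16, 1 was called lower in R1 than in P19 and higher in P19 NTES7 than in R1, at 17.9 ± 1.21 in P19, 8.5001 ± 0.502 in R1 and 17.9 ± 3.0996 in P19 NTES7 (means of 3 arrays ± SD). Among all 16, 4 were above the median of all array values. Adamts3 was singled out after its values were seen.

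Some members that were not called still had an adjusted p under 0.01 between P19 NTES7 and P19. Without the fold limit, 12 members passed upward from P19 to P19 NTES7 and 5 downward, against 4.89% and 7.25% of all genes. Adamts6, chosen after its values were seen, was at 8.55, 8.89 and 9.84 on the P19 arrays, 13.3, 20.9 and 15.2 on the P19 NTES7 arrays and 12.3, 10.5 and 12.4 on the R1 arrays, and Adamts19, chosen in the same way, at 17.2, 17.9 and 17.01 on the P19 arrays, 10.9, 11.8 and 12.1 on the P19 NTES7 arrays and 11.96, 10.2 and 13.4 on the R1 arrays. All P19 NTES7 arrays were above the P19 arrays for Adamts6 and below them for Adamts19 (log2 differences 0.83 and -0.59, adjusted p = 0.00126 and 0.00193). Adamts6 was below the array median in every line, and Adamts19 was above it in P19 alone.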
